A study of Mus musculus with 9 samples.

Results

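END2 cells were compared with PYS2 cells on 6 of the 9 arrays of the series, 3 of each line. Both lines have been used as models of extra-embryonic endoderm that can induce heart tissue. The END2 line comes from P19 embryonal carcinoma, and the labels give it the strain p19 and call it an embryonal carcinoma cell line. PYS2 cells were derived from tumor cells of strain 129 mice, which the paper also calls embryonal carcinomas. The END2 cells were kept in a mixture of DMEM and F12 medium with serum, and the PYS2 cells in high glucose DMEM with serum, pyruvate and β-mercaptoethanol, so line and medium cannot be told apart. Nothing in the labels says that the 3 RNA samples of a line came from separate cultures. The p-values therefore rest only on how far these samples lie from each other, and that spread may be technical. The third line of the study, XEN cells from ICR blastocysts, was normalized together with both lines, shares the estimate of the spread, and is set beside them for some genes and chromosomes.

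Extra-embryonic endoderm arises in the blastocyst as the primitive endoderm, which is specified by the transcription factors Gata6, Gata4, Sox17 and Sox7 and carries the receptor Pdgfra. It gives rise to the visceral endoderm (VE), a polarized epithelium that takes up maternal protein through the receptors cubilin, amnionless and megalin and secretes apolipoproteins, transthyretin and other plasma proteins. It also gives rise to the parietal endoderm (PE), which loses its epithelial form, migrates along the trophoblast and lays down Reichert's membrane, a thick basement membrane of laminin, type IV collagen, nidogen and perlecan. The anterior visceral endoderm (AVE) secretes antagonists of Wnt and Nodal signalling and is the part of this lineage linked to the induction of the heart and head. END2 cells have been described as VE-like and PYS2 cells as PE-like.

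Levels are log2 values of background-corrected, quantile-normalized bead signals. A difference is END2 minus PYS2, so that 1 unit is 2-fold and a positive value is higher in END2. Detection on an array required a detection p-value below 0.01, and presence in a line required detection on 2 or more of its 3 arrays. The comparison used the 15745 of 45281 probes that were present in END2 or in PYS2, which stood for 9098 named genes, each represented by its brightest tested probe. Each END2 array detected 13560 to 14940 probes and each PYS2 array 13051 to 13548. END2 replicate 3 stood apart from the other END2 arrays. Its distance to them was 71.7 and 78.1 on the log2 scale over the tested probes, while END2 replicates 1 and 2 were 34.6 apart, the PYS2 arrays were 48.5 to 60.4 apart and every END2 array was 189.2 to 195 from every PYS2 array.

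A majority of the measured genes differed between the lines. Of the 9098 genes, 5147 (56.6%) passed at an adjusted p-value of 0.05 in limma, 2470 (27.1%) of them higher and 2677 (29.4%) lower in END2. Among probes 8565 (54.4%) passed, 4199 (26.7%) higher and 4366 (27.7%) lower, and without END2 replicate 3 the last counts were 4432 and 4576. The difference was at least 8-fold for 349 genes that were higher and 266 that were lower in END2, and at least 32-fold for 103 and 71. The median absolute difference over all genes was 0.63, against a median SD of 0.227 within the END2 arrays and 0.205 within the PYS2 arrays, and the median signed difference was -0.03. The levels of the END2 arrays and the PYS2 arrays did not overlap for 5619 genes (61.8%). In END2 cells 8418 genes were present and in PYS2 cells 7906, of which 7226 were present in both, 1192 only in END2 and 680 only in PYS2. The chosen probe was detected on all END2 arrays and no PYS2 array for 714 genes, and on all PYS2 arrays and no END2 array for 474. For such genes a fold is given as a lower bound, the mean of the line that measured the gene over the lowest signal that counted as detected in the other line. Without any normalization between arrays, 62.9% of the probes that passed were higher in END2, against 49% here, and the median difference of all genes moved to 0.18.

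**Figure D1:**
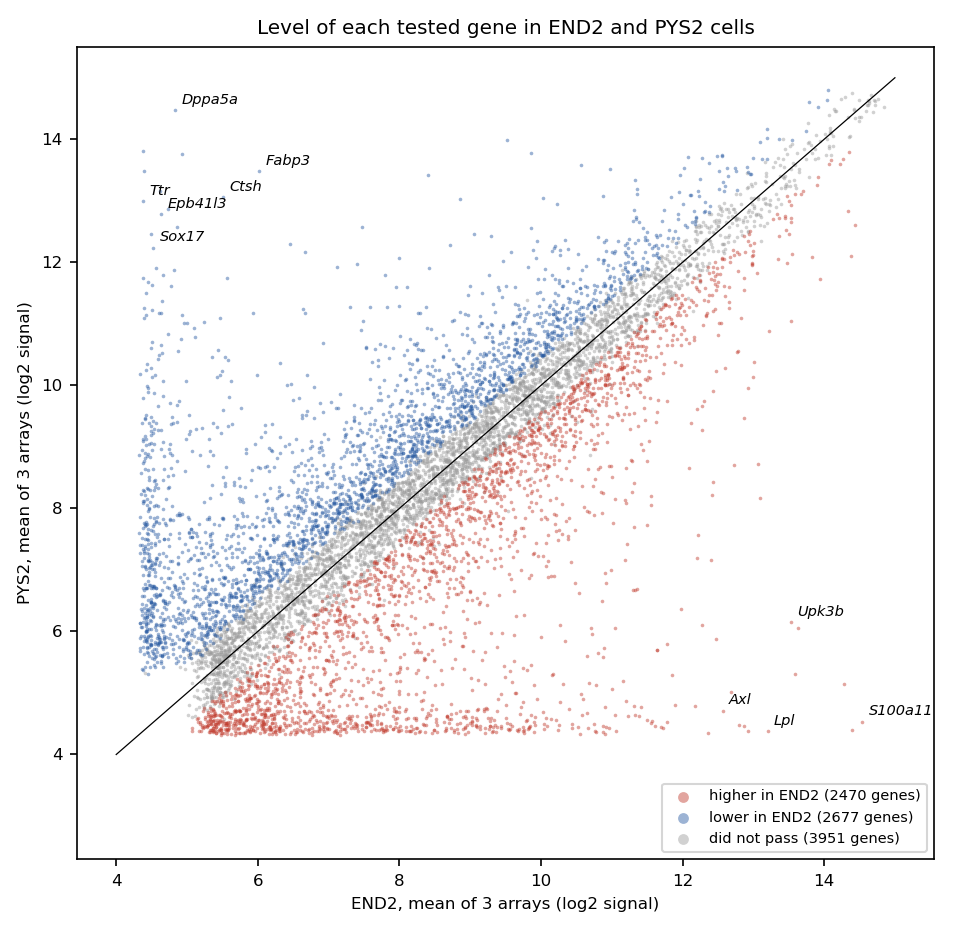
Mean level of each of the 9098 tested genes in END2 cells (x axis) and PYS2 cells (y axis), both in log2 signal over 3 arrays, with the line of equal levels. The 2470 genes higher in END2 lie below the line, the 2677 lower genes above it, and the bands near a level of 4.4 are genes below background in the other line.

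A gene present in 1 line alone entered the comparison through that line, so its direction follows from the filter. Most gene lists are therefore described also by the members present in both lines. Of 23 transcription factors of extra-embryonic endoderm on the array, 10 were present in END2 and 14 in PYS2. Of 16 tested, 12 were lower and 3 higher in END2, with a median difference of -3.36 (93.8% passed, against 56.6% of all genes). Of the 8 present in both lines 6 were lower and 1 was higher. Sox7, a Sox factor of the primitive and parietal endoderm, had levels of 4.39, 4.41 and 4.34 in END2 and 11.78, 11.29 and 12.17 in PYS2. Sox17, its relative that also specifies definitive endoderm, had 4.50, 4.60 and 4.47 in END2 and 12.42, 12.08 and 12.23 in PYS2. Neither gene was detected on any END2 array, and PYS2 exceeded END2 at least 85.3-fold for Sox7 and at least 120-fold for Sox17 (adjusted p 3.19e-10 and 4.41e-11). In a bulk sample, fewer cells that express a gene and less of its RNA per cell cannot be told apart.

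Gata6 went the other way from its partners. This zinc finger factor, the earliest of the primitive endoderm, was at 12.57, 12.59 and 12.20 in END2 and 11.73, 11.62 and 11.80 in PYS2, a difference of 0.73 ± 0.164 (SE, adjusted p = 0.00276), and every END2 array was above every PYS2 array. Gata4, its close relative, averaged 6.21 ± 0.11 in END2 and 8.93 ± 0.365 in PYS2 (SD, n = 3 each), a 6.58-fold lower level in END2. Hnf4a, the nuclear receptor that drives the hepatic program of the VE, was below background in END2 and at least 18.3-fold higher in PYS2. Foxa2, a forkhead factor of all endoderm, was measured in both lines and was 5.48-fold lower in END2, while its relative Foxa3 was at least 57.4-fold lower and was at 5.63 in XEN cells. Sall4, a zinc finger factor of stem cells and primitive endoderm (at least 93.7-fold), and Cited1, a transcriptional co-activator of VE and trophectoderm (at least 184-fold), were also below background in END2. The genes higher in END2 were Gata6, Lhx1 and Foxa1. Lhx1, a LIM homeobox factor of the AVE, averaged 6.99 ± 0.46 in END2 and was not detected in PYS2. Hhex, a homeobox factor that marks the AVE, was measured in both lines and was 6.52-fold lower in END2, and the receptor Pdgfra was 27.9-fold lower.

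The apical uptake machinery of the VE was lower in END2 in 13 of 15 tested genes (median -3.01), and 1 gene was higher (93.3% passed). Of these genes 10 were present in both lines, 9 of them lower and 1 higher, and 5 were present in PYS2 alone. Amn, which anchors the cubilin receptor in the membrane, had levels of 4.62, 4.55 and 4.68 in END2 and 13.09, 13.05 and 13.35 in PYS2, at least a 228-fold lower level. Cubn itself was below background in END2 and at 8.89 ± 0.263 in PYS2. The receptor they work with in uptake, Lrp2 (megalin), was less far apart, with 9.23, 9.38 and 10.31 in END2 and 11.52, 11.03 and 10.50 in PYS2, and its highest END2 array came close to the lowest PYS2 array. Dab2, the adaptor that links these receptors to clathrin, was 4.05-fold lower in END2 and remained high there, at 11.33. Slc13a4, a sulfate transporter (72.4-fold), and Slc39a4, a zinc importer (51.1-fold), were lower and detected on 2 END2 arrays each. Dpp4, an apical peptidase detected on 1 END2 array, was 66.4-fold lower, and Folr1, a folate receptor, at least 15.7-fold. Fcgrt, the neonatal Fc receptor, was the exception, with a difference of 2.20.

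Of 37 genes of secreted plasma proteins on the array, 5 were present in END2 and 13 in PYS2, with 3 in both. Of 15 tested genes 12 were lower in END2 and 2 were higher (93.3% passed). The median was -2.71 (-2.44 with undetected genes at their bounds). Of these genes 10 were present in PYS2 alone and 2 in END2 alone, so their direction follows from the filter. Of the 3 present in both lines 2 were lower and 1 did not pass. Ttr, the thyroid hormone carrier that is a standard VE marker, had 4.39, 4.39 and 4.36 in END2 and 12.94, 13.08 and 12.98 in PYS2. This VE marker was below background on every array of the line described as VE-like, and at least 203-fold higher in PYS2. By qRT-PCR the paper reports Ttr in END2 cells as well, at a lower level. Apoe was measured in both lines and was 24.4-fold lower in END2 (7.34, 7.03 and 5.53, against 11, 11.23 and 11.49 in PYS2). Apoa2, Apom and Mttp, the transfer protein that loads lipoproteins, were below background in END2 and at least 14.9-fold, 11.4-fold and 7.07-fold higher in PYS2. Apoa1 was lower in END2 by a smaller margin, at least 1.91-fold. The genes higher in END2 were Serpinf1, the anti-angiogenic protein PEDF, with 10.57 ± 0.658 in END2 and no detection in PYS2, and Cp, the copper oxidase ceruloplasmin, which 1 PYS2 array detected (6.22-fold). Afp, the fetal plasma protein of late VE, was detected on none of the 6 arrays. For Afp this rests on a single probe, and the paper reports Afp in PYS2 cells by qRT-PCR.

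**Figure D2:**
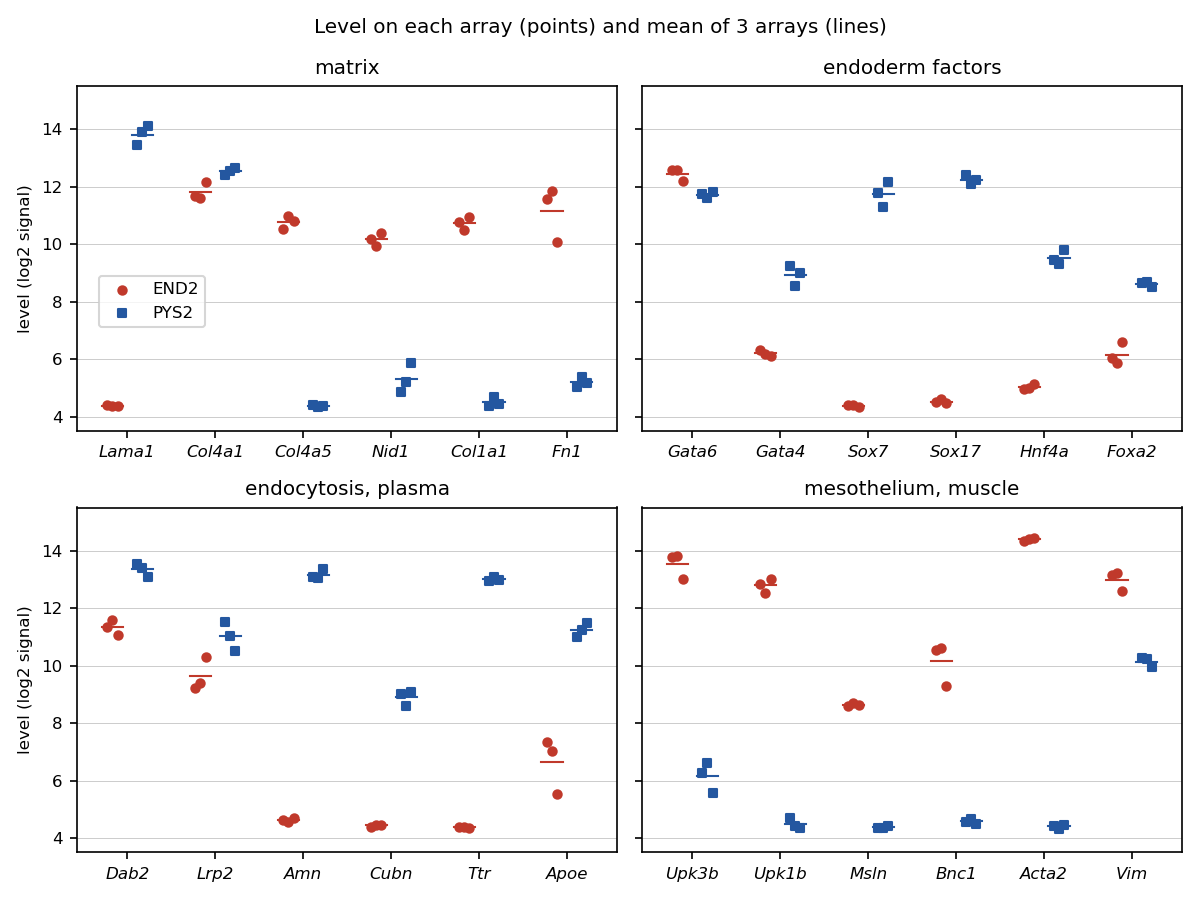
Level (log2 signal, y axis) of 24 genes on each END2 array (red circles) and each PYS2 array (blue squares), with the mean of 3 arrays as a line. Lama1, Sox7, Sox17, Amn, Cubn and Ttr lie at 4.38 to 4.61 in END2, and Col4a5, Col1a1, Upk1b, Msln, Bnc1 and Acta2 at 4.36 to 4.57 in PYS2.

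The basement membrane genes divided by chain. Of 20 tested, 9 were higher and 6 lower in END2 (75% passed, median 0.62, or 0.32 with undetected genes at their bounds). Members present in both lines were 12, of which 3 were higher and 4 lower. Another 6 were present in END2 alone and 2 in PYS2 alone, so the list as a whole had no single direction. Lama1, the laminin alpha chain of Reichert's membrane, had 4.39, 4.37 and 4.38 in END2 and 13.43, 13.90 and 14.10 in PYS2. It was at least 357-fold lower in END2 (adjusted p = 4.39e-11) and at 14.20 in XEN cells. The laminin chains that pair with it were expressed in both lines. Lamc1 averaged 11.36 ± 0.0627 in END2 and 13.20 ± 0.24 in PYS2, 3.58-fold lower in END2. Lamb1 had 5.75, 6.16 and 6.58 in END2 and 8.75, 8.87 and 5.90 in PYS2, and the groups overlapped because PYS2 replicate 3 was low (adjusted p = 0.0365, and 0.0714 to 0.155 without any one of the other PYS2 arrays or END2 replicates 1 and 2). Lama5, the alpha chain of most adult epithelial basement membranes, was higher in END2, by 1.64 ± 0.171 on the log2 scale (SE).

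Type IV collagen showed the same division. Col4a1, an alpha chain of the ubiquitous collagen IV network, was 1.65-fold lower in END2 (11.66, 11.61 and 12.15, against 12.42, 12.55 and 12.63 in PYS2). Its adjusted p was 0.0173, and 0.0568 to 0.0613 without END2 replicate 1, END2 replicate 2 or PYS2 replicate 3. Its partner Col4a2 differed by -0.32 with an adjusted p of 0.304. Col4a5 and Col4a6, chains of the specialized networks of kidney and smooth muscle, were not detected in PYS2 and reached 10.77 and 7.6 in END2, at least 36.7-fold and 4.08-fold higher. Nid1, which bridges laminin and collagen IV, was at 10.19, 9.94 and 10.39 in END2 and at 4.87, 5.20 and 5.87 in PYS2, where 1 array detected it. Its relative Nid2 did not pass (0.65, adjusted p = 0.114). Hspg2, which encodes perlecan, was 1.05 higher in END2, and Sparc, a collagen-binding protein of PE, was at 13.42 ± 0.476 in END2 and 14 ± 0.387 in PYS2, which overlapped (adjusted p = 0.118). The enzymes that modify and fold collagen were mixed, with 6 higher and 8 lower of 19 (73.7% passed). Among the 14 present in both lines 1 was higher and 8 were lower, and 5 were present in END2 alone. The lysyl oxidase Lox, which crosslinks fibrillar collagen outside the cell, was at least 29-fold higher in END2, as was its relative Loxl1 (at least 6.57-fold). The intracellular hydroxylases P4ha2 (-1.69) and P3h2 (-2.14) were lower.

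Of 32 fibrillar and interstitial matrix genes on the array, 21 were present in END2 and 6 in PYS2, all 6 of them also in END2. The 15 genes present in END2 alone were tested through END2, where they are high. Of the 6 present in both lines 3 were higher, 2 did not pass and 1 was lower. Over the 21 tested genes 18 were higher and 1 lower (90.5% passed), and the median difference was 4.21 (3.52 with undetected genes at their bounds). Dcn, the small proteoglycan decorin, had 13.22, 13.43 and 12.11 in END2 and 4.47, 4.38 and 4.31 in PYS2, at least a 163-fold higher level. Col1a1, the main chain of type I collagen, had 10.78, 10.50 and 10.94 in END2 and 4.36, 4.69 and 4.45 in PYS2. No PYS2 array detected either gene, and no XEN array did. Fn1, fibronectin, was at least 47.9-fold higher and Fbln2, an elastic fibre protein, at least 96.9-fold. Fbln1, a relative of Fbln2, was the exception, at 8.72 ± 0.249 in END2 and 12.28 ± 0.365 in PYS2, and all 5 of its tested probes were lower in END2. This list was 0.45 lower in END2 replicate 3 than in the other END2 arrays at the median, and without that array 19 genes were higher and the median was 4.71.

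The mesothelium is the epithelium that lines the body cavities and covers the heart, and all 8 of its marker genes on the array were present in END2, while 1 was present in PYS2. The median difference was 5.17 (4.16 with undetected genes at their bounds), and 7 of the genes were tested through END2 alone. Upk3b, a uroplakin of mesothelium, had 13.78, 13.82 and 13 in END2 and 6.28, 6.61 and 5.58 in PYS2. Upk1b, a uroplakin of the same membrane complex, had 12.84, 12.54 and 13.02 in END2 and 4.70, 4.42 and 4.34 in PYS2. Msln, mesothelin, and Bnc1, a zinc finger factor of mesothelium, reached 8.64 ± 0.0459 and 10.14 ± 0.733 in END2 and were not detected in PYS2. Cdh3, P-cadherin, which epidermis and trophoblast also express, was at least 14.5-fold higher. Upk3b and Msln were at 4.61 and 4.55 in XEN cells, and Upk1b at 7.46. These genes were listed with earlier results of these data known, so their presence is a description of the line.

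Of 22 smooth muscle and contractile genes on the array 18 were present in END2 and 13 in PYS2. Among the 18 tested 12 were higher and 3 lower (83.3% passed, median 1.35), and of the 13 present in both lines 7 were higher and 3 lower. Cnn1, Myh11 and Lmod1 were detected on no array of either line. Acta2, smooth muscle actin, was among the most abundant transcripts of END2, with 14.34, 14.41 and 14.44, while PYS2 had 4.43, 4.33 and 4.45. The difference of 9.99 ± 0.206 was the second largest of all genes that were higher, and corresponded to at least 453-fold. Tpm2, a muscle tropomyosin, was at least 25.7-fold and Tagln, transgelin, at least 7.7-fold higher. Csrp2, a LIM protein of smooth muscle, was lower in END2 (-3.03), as was Myl9 (-1.73), and Tagln2 did not pass (0.03, adjusted p = 0.939). Of the mesenchymal factors, 13 of 16 were higher and none was lower (81.2% passed). The median was 1.42, or 0.54 with undetected genes at their bounds, and 11 of the 16 were present in END2 alone. Vim, the intermediate filament vimentin, was 7.19-fold higher in END2 and well above background in PYS2. Tcf21, a factor of epicardium and visceral mesenchyme, was at least 6.96-fold, Foxc1 at least 3.3-fold and Snai2 at least 2.48-fold higher. Snai1 and Zeb1, factors of epithelial-mesenchymal transition, did not pass (adjusted p 0.667 and 0.0515, the last being 0.043 without END2 replicate 3). Of 7 genes of caveolae on the array 4 were present in END2 and none in PYS2, and Cav1, the structural protein of these membrane pits, was at least 110-fold higher.

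The promoters of 5 of the genes furthest apart are shown, 3 that were higher and 2 that were lower in END2, as the 250 bases before the RefSeq start on GRCm38.p6, with GGAATG or its reverse CATTCC (the core letters read by TEAD factors) and TGANTCA (those read by AP-1 factors) in capitals.
S100a11: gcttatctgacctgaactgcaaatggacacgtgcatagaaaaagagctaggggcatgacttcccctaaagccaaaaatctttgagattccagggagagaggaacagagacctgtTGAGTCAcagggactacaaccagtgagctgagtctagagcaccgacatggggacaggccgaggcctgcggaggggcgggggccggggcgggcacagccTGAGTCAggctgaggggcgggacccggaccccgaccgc
Acta2: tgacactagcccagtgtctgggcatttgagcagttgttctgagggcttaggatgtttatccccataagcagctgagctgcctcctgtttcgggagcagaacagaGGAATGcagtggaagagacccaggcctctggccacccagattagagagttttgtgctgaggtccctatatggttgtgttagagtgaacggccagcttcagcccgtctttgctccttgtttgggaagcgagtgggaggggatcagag
Upk3b: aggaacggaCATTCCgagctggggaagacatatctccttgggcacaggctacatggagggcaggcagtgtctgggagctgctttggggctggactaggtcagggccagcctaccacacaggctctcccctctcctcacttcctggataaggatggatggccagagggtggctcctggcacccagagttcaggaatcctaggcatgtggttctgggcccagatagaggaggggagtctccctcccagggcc
Amn: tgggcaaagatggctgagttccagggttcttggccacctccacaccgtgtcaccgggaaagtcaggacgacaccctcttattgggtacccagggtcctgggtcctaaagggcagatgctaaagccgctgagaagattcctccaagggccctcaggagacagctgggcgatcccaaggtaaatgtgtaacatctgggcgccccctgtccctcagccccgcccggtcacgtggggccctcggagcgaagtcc
Rhox5: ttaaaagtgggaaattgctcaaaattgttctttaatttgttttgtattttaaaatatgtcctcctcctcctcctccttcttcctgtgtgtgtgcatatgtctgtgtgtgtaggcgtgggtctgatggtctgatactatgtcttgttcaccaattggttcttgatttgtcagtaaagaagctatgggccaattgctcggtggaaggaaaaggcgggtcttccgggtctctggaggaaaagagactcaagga

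These windows lie at chr3:93520246-93520495 on the plus strand for S100a11, chr19:34255374-34255623 on the minus strand for Acta2, chr5:136038246-136038495 on the plus strand for Upk3b, chr12:111270846-111271095 on the plus strand for Amn and chrX:37754358-37754607 on the plus strand for Rhox5. The S100a11 window held TGANTCA at 2 places, the Acta2 and Upk3b windows GGAATG at 1 place each, and the windows of Amn and Rhox5 neither. These 5 do not stand for the rest. Of the 15 genes furthest apart on the higher side, 10 have a promoter in the table, 4 of them with GGAATG and 2 with TGANTCA, and of the 15 on the lower side 6 have one, 1 of them with GGAATG and 0 with TGANTCA. Over the 7422 tested genes with a promoter in the table, searched on both strands over 300 bases, GGAATG stood in 12.2% of promoters and in 14.6% of all 27025 promoters. It stood in 17.2% of the 261 promoters of genes at least 8-fold higher in END2, in 19.5% of the 195 at least 8-fold lower and in 11.3% of those that did not pass. TGANTCA stood in 5.36% of the higher, 4.1% of the lower and 4.42% of all tested promoters. AGATAA or TGATAA, the letters read by GATA factors, stood in 11.5%, 6.67% and 9.3%. Promoters at both ends of the comparison were poorer in CpG, with a median of 16 CpG for genes at least 8-fold higher and 14 for those at least 8-fold lower, against 22 for genes that did not pass. A match is a description of the letters and not a bound site.

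Epithelial genes had no common direction, with 7 higher and 8 lower of 18 tested (83.3% passed). Among the 12 present in both lines 6 were higher and 3 lower, while 1 was present in END2 alone and 5 in PYS2 alone. Cdh1, E-cadherin, had 4.88, 4.66 and 4.86 in END2, all below background, and 8.24, 8.87 and 8.51 in PYS2. Cldn6, a claudin of embryonic epithelia, was at least 95-fold lower in END2, Elf3, an epithelial ETS factor, at least 23.6-fold and the tight junction protein Ocln at least 2.79-fold. The END2 cells nevertheless carried epithelial transcripts of other kinds. Krt19, a keratin of simple epithelia used as a PE marker, was at 9.81, 9.71 and 9.97 in END2 and 7.20, 6.56 and 6.85 in PYS2, a 7.78-fold higher level. By qRT-PCR the paper reports Krt19 at relatively lower levels in END2. Spint1, a protease inhibitor of epithelia (at least 16.1-fold), Cxadr, a junction protein (18.2-fold), and the desmosomal genes Dsg2 (6.42-fold by its brightest probe) and Pkp2 (6.16-fold) were higher as well. Another Dsg2 probe, detected on every array of both lines, differed by -0.01 (adjusted p = 0.977), and further Dsg2 probes were higher by 1.08 and 1.10. The keratin Krt8 was 2.9-fold lower in END2, and its partner Krt18, at 11.62 in END2 and 11.72 in PYS2, did not pass.

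**Figure D3:**
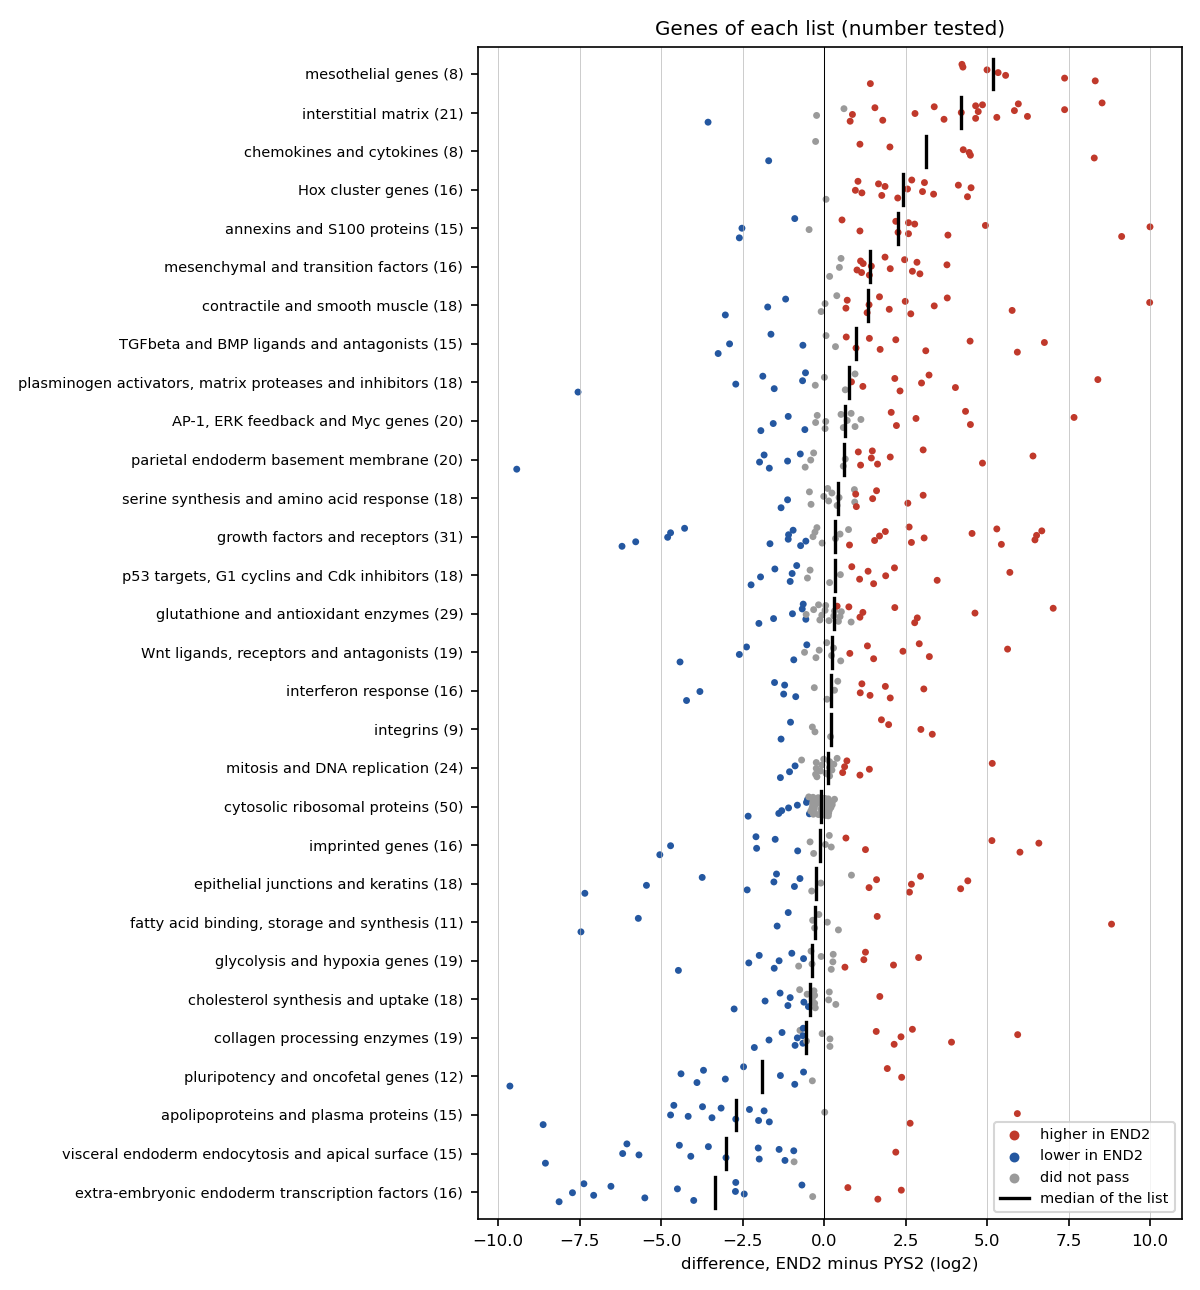
Difference between END2 and PYS2 (log2, x axis) of each tested gene in the 30 lists with at least 8 tested genes, ordered by their median (black bar), with genes that passed in red (higher in END2) or blue (lower) and the others in grey. The mesothelial genes, 7 of 8 of them tested through END2 alone, lie wholly on the right with a median of 5.17, and the extra-embryonic endoderm transcription factors, at a median of -3.36, mostly on the left.

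Of the pluripotency and oncofetal genes, 9 of 12 were lower in END2 and 2 were higher (91.7% passed, median -1.90). Of the 6 present in both lines 4 were lower and 1 was higher. Dppa5a, an RNA-binding protein of pluripotent and germ cells, had the largest difference of all genes that were lower, with 4.73, 4.85 and 4.93 in END2 and 14.31, 14.49 and 14.63 in PYS2, at least 566-fold. Lin28a and Trim71, which act on the let-7 pathway, were at least 10.8-fold and 10.9-fold lower, and Dnmt3b, the de novo DNA methyltransferase, was 13-fold lower and measured in both lines. Pou5f1, Sox2 and Zfp42, the defining genes of pluripotent cells, were present in neither line. Both lines trace back to embryonal carcinoma, and END2 is labelled an embryonal carcinoma line. The Nanog probe was detected on all END2 arrays (6.41, 6.52 and 7.02) and on no PYS2 array, at least 2.11-fold higher. Markers of other cell types were few. Of 15 neural markers on the array 2 were present in END2 and 1 in PYS2, among them in END2 Map2, a neuronal microtubule protein (at least 10.1-fold). Of 16 cardiac markers on the array 5 were present in END2 and none in PYS2, with Myl7, the atrial myosin light chain, at 7.90 ± 0.859 in END2 and Nkx2-5 at 6.23 ± 0.306, both undetected in PYS2. Of 12 endothelial and blood markers on the array none was present in END2 and 3 were present in PYS2, among them the angiopoietin receptor Tek, at 5.18 in END2 and 8.87 in PYS2. Gata3, a factor of trophoblast and other epithelia, was at least 4.5-fold higher in END2, and Cdx2, the trophectoderm factor, was detected in PYS2 alone, at 6.04.

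Among secreted signals, the TGFβ and BMP family had 9 genes higher and 4 lower of 15 (86.7% passed, median 0.98). The 11 present in both lines had 6 higher and 3 lower. Bmp4, a BMP ligand that patterns mesoderm, was at 11.57, 12.15 and 11.20 in END2 and 5.69, 5.75 and 5.68 in PYS2, a 61.2-fold higher level. Id1 and Id3, chosen after their values were seen, were higher by 1.39 and 0.98. A dimmer probe of Id2 did not pass (0.76, adjusted p = 0.266), and Bambi was detected on no array of either line. A link of these genes to Bmp4 was not tested. Tgfb3 was at least 12.6-fold and Inhba, the activin subunit, at least 1.94-fold higher. Of the antagonists, Fstl1, a follistatin-like glycoprotein of mesenchyme and epicardium, was at least 56.4-fold and Chrd, chordin, 8.69-fold higher, while Fst, follistatin itself, was 7.47-fold lower. Lefty1, the Nodal antagonist of the AVE, was at least 1.88-fold lower. Bmp2 and Cer1 were detected on no array of either line. For Bmp2 this rests on a single probe, and the paper reports Bmp2 in PYS2 cells by qRT-PCR and antibody staining.

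The Wnt genes were mixed, with 7 higher and 5 lower of 19 and a median of 0.23. Of them 63.2% passed, against 56.6% of all genes. The 9 present in both lines had 2 higher and 2 lower. Wnt5a, a ligand of the non-canonical pathway, had 9.67, 10.03 and 10.44 in END2 and no detection in PYS2, at least a 22.2-fold higher level. Rspo3 and Sfrp2, a Wnt agonist and a secreted Wnt-binding protein, were at least 4.25-fold and 2.71-fold higher. Dkk1, the Wnt antagonist of the AVE, went the other way, with 4.76, 4.61 and 4.61 in END2 and 9.04, 9.16 and 9.04 in PYS2. Axin2, a transcriptional target of the canonical pathway, was 5.19-fold lower in END2.

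Of 31 tested growth factor and receptor genes, 13 were higher and 11 lower in END2 (77.4% passed). The median was 0.35, or 0.00 with undetected genes at their bounds, and of the 14 present in both lines 2 were higher and 6 lower. The genes that were higher included all 6 tested insulin-like growth factor binding proteins. Of these, Igfbp3, Igfbp4 and Igfbp7 were detected on no PYS2 array, so they were tested through END2 and their direction follows from the filter. Igfbp4 and Igfbp7 were at least 53.5-fold and 40.6-fold and Igfbp3 at least 20.3-fold higher, and Igfbp2, measured in both lines, was 2.93-fold higher. Egfr, the epidermal growth factor receptor, had 11.33, 11.03 and 10.81 in END2 and 4.35, 4.44 and 4.35 in PYS2. Kit, the receptor of stem cell factor, had 4.56, 4.53 and 4.42 in END2 and 10.84, 10.62 and 10.66 in PYS2. The arrays of the lines lay more than 6 units apart for both receptors, in opposite directions. Pth1r, the parathyroid hormone receptor of PE (at least 30.8-fold), and Ihh, a hedgehog ligand of VE (at least 13.1-fold), were lower in END2. Fgf5, a ligand of the epiblast, was at least 20.3-fold higher.

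Of 17 chemokine and cytokine genes on the array 7 were present in END2 and 2 in PYS2, with 1 in both. Cxcl12, which draws cells that carry Cxcr4, had 13.50, 13.39 and 13.89 in END2 and 5.24, 5.15 and 5.52 in PYS2, at least a 260-fold higher level. Csf1, Cxcl1 and Ccl7 were at least 12.3-fold, 10.6-fold and 10-fold higher, and the interferon-induced Cxcl10 was lower (at least 1.73-fold). In the list of AP-1 and ERK feedback genes 6 were higher and 4 lower of 20, so that 50% passed, against 56.6% of all genes. Without END2 replicate 3 the count of higher genes was 10. The 16 present in both lines had 4 higher and 3 lower. Dusp6, the ERK phosphatase that ERK itself induces, averaged 13.07 ± 0.0925 in END2 and 8.73 ± 0.399 in PYS2, a 20.3-fold higher level. Ier3, an early response gene, was at least 139-fold higher. Etv5, Etv4, Myc and Jun were lower (-1.94, -1.56, -1.10 and -0.59). Etv4 did not pass without PYS2 replicate 1, nor Jun without END2 replicate 2 (adjusted p 0.0552 and 0.0543). Fos was at 11.80, 11.20 and 9.12 in END2 and 9.45, 9.29 and 9.98 in PYS2 and did not pass (adjusted p = 0.115, or 0.00106 without END2 replicate 3). The END2 arrays 1 and 2 were above all PYS2 arrays and END2 replicate 3 was below them. The immediate early gene Egr1 had the same pattern, at 12.56, 12.52 and 8.98 in END2 and 10.68, 10.26 and 10.98 in PYS2.

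Of 18 tested proteases and inhibitors of the matrix and lysosome, 8 were higher and 6 lower in END2 (77.8% passed), and all 3 tested cathepsins were lower. Among the 12 present in both lines 4 were higher and 5 lower, while 5 were present in END2 alone and 1 in PYS2 alone. Mmp2, the gelatinase that degrades type IV collagen, had 12.88, 13.35 and 12.39 in END2 and 4.41, 4.45 and 4.55 in PYS2 (at least 158-fold), and Mmp14, its activator, was 9.32-fold higher. The inhibitors Timp2 and Timp3 were 16.4-fold and 7.96-fold higher, while Timp1 differed by 0.01. Ctsh, a cathepsin, had 5.44, 5.73 and 5.36 in END2 and 13.06, 13.01 and 13.09 in PYS2, and Ctsl, cathepsin L, was 6.54-fold lower. The plasminogen activators split. Plau, the urokinase type, was at least 2.21-fold higher in END2, and Plat, the tissue type that marks PE, was 1.58-fold lower (adjusted p = 0.0281, and 0.0599 to 0.0754 without END2 replicate 3 or any one PYS2 array).

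The annexins and S100 proteins, which bind calcium and membranes, included the largest positive difference of all genes. Of 15 tested, 11 were higher and 3 lower (93.3% passed, median 2.27), and of the 9 present in both lines 6 were higher and 2 lower. S100a11 had 14.44, 14.50 and 14.68 in END2 and 4.51, 4.44 and 4.66 in PYS2, a difference of 10 ± 0.166 and at least 500-fold. Anxa3 had 14.28, 14.27 and 14.30 in END2 and 5.81, 4.88 and 4.76 in PYS2, where 1 array detected it. XEN cells had 13.80 for S100a11 and 11.17 for Anxa3, so the low level was that of PYS2. Anxa1 was at least 13.5-fold and the widely expressed Anxa2 4.81-fold higher. S100a1 was 6.05-fold and S100g, the calcium carrier of yolk sac and gut, at least 3.48-fold lower. Of 9 integrins 4 were higher and 2 lower (66.7% passed), and of the 6 present in both lines 2 were higher and 1 lower. Itga11, a collagen receptor, was at least 4.55-fold higher, and Itga5, the fibronectin receptor subunit, was 2.04-fold lower.

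Genes of the Hox clusters, which give cells of the trunk their position, were present in END2 for 16 and in PYS2 for 4 of 33 on the array. The 12 present in END2 alone were tested through END2, and the 4 present in both lines were all higher in END2. The median over the 16 was 2.41 (1.83 with undetected genes at their bounds). Hoxb7 had 9.92, 9.95 and 9.71 in END2 and 5.09, 5.66 and 5.62 in PYS2, and Hoxc6 had 9.19, 9.18 and 8.72 in END2 and was not detected in PYS2. Members of all 4 clusters were among them, with Hoxa2 at least 4.78-fold and Hoxd8 at least 9.33-fold higher. Hoxc10 did not pass (adjusted p = 0.829). Of 14 genes that handle retinoic acid 4 were present in END2 and 1 in PYS2, with none in both. Aldh1a1, which makes retinoic acid, was at least 40.4-fold higher in END2 (10.64, 11.15 and 10.94), and Aldh1a2, which makes it in the embryo, at least 1.43-fold. Stra6, the retinol importer that retinoic acid induces, was at least 6.29-fold lower.

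Imprinted genes differed in both directions, with 5 higher and 6 lower of 16 (68.8% passed). The 11 present in both lines had 3 higher and 4 lower. Mest had 12.49, 13.07 and 11.86 in END2 and 6.29, 6.27 and 5.09 in PYS2, a 96.6-fold higher level, and Nnat, neuronatin, was at least 29.3-fold higher. Igf2, the fetal growth factor, had 11.41, 11.86 and 9.16 in END2 and 5.12, 5.83 and 6.01 in PYS2, and END2 replicate 3 was the lowest END2 array by over 2 units. Igf2r, the receptor that clears Igf2, was 26.1-fold lower in END2, and Cdkn1c, a growth-restraining Cdk inhibitor, at least 17.3-fold. Of the genes of the sex chromosomes, the Y-linked Eif2s3y had 8.89, 9.13 and 8.90 in END2 and 4.33, 4.33 and 4.44 in PYS2, where it was not detected. Xist, the RNA of the silenced X, was detected on no array of either line.

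Of 18 genes of cholesterol synthesis and uptake 7 were lower, 1 was higher and 10 did not pass, so that 44.4% passed, against 56.6% of all genes. The sterol oxidase Msmo1 had the largest difference among them (-2.76). Of 19 genes of glycolysis and hypoxia 5 were higher and 7 lower, so that 63.2% passed, and the glucose transporter Slc2a3 had 9.56, 9.47 and 9.55 in END2 and 14.04, 13.97 and 13.97 in PYS2, 22.2-fold lower. Of 11 genes that handle fatty acids 2 were higher and 4 lower (54.5% passed), and of the 8 present in both lines none was higher and 3 were lower. Lpl, the lipase that releases them from lipoproteins, had 13.21, 13.33 and 13.07 in END2 and no detection in PYS2 (at least 198-fold). The carrier Fabp3 (-7.46) and Dgat2, which makes triglyceride (at least 37.6-fold), were lower. Of 29 genes of glutathione and antioxidant defence 9 were higher and 6 lower (51.7% passed), with the microsomal transferase Mgst1 at least 63.1-fold higher. The 22 present in both lines had 4 higher and 5 lower. Of 18 genes of serine synthesis and the amino acid response 6 were higher and 2 lower (44.4% passed). The counts were 4 and 4 without END2 replicate 3, which lay 0.70 above the other END2 arrays at the median of this list. Without PYS2 replicate 2, 3 genes were higher.

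Of 50 cytosolic ribosomal protein genes 42 did not pass and 8 were lower (median -0.08), so that 16% passed, against 56.6% of all genes. Ribosomal protein genes have many near-identical pseudogenes, so single values there are uncertain. Of 24 genes of mitosis and DNA replication, all present in both lines, 6 were higher, 3 lower and 15 did not pass (37.5% passed). The largest of these differences was that of Plk1, the mitotic kinase, at 11.07, 10.57 and 11.02 in END2 and 5.86, 5.70 and 5.62 in PYS2. XEN cells had 10.88, and the difference rests on the 1 tested probe of the gene. Rrm1, a subunit of ribonucleotide reductase, was 1.39 higher and Ccne1, cyclin E1, was lower (-1.34). Of 18 p53 targets, G1 cyclins and Cdk inhibitors 8 were higher, 6 lower and 4 did not pass (77.8% passed). The 14 present in both lines had 5 higher and 6 lower. Cdkn2b and Cdkn2a, which lie side by side, were higher in END2, Cdkn2b at least 32.4-fold and Cdkn2a, measured in both lines, 4.48-fold, and Cdkn1a, the p53 target p21, was 4.73-fold lower. Ccnd1, cyclin D1, was 11.1-fold higher. Of 16 interferon response genes 6 were higher and 6 lower (75% passed), with Bst2, a tethering factor of viruses, 18.7-fold lower and Ifit2 at least 4.35-fold higher. The 9 present in both lines had 2 higher and 4 lower. Of 7 genes of class I antigen presentation 1 was higher, 3 were lower and 3 did not pass (57.1% passed, median 0.24). The class I antigen H2-K1 was 5.74-fold lower, its light chain B2m 2.29-fold, and Psmb10, an immunoproteasome subunit, was higher by 0.77.

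Several of the largest differences fell outside these groups. Axl, a receptor tyrosine kinase of mesenchyme, had 12.47, 12.12 and 13.11 in END2 and 4.68, 4.94 and 4.52 in PYS2, at least a 128-fold higher level. Prnp, the prion protein, was 190-fold higher and detected on every array of both lines, and Cdc42ep3, an effector of the small GTPase Cdc42, at least 71.2-fold. Among the lower genes, Clic6, a chloride channel family protein, had 4.44, 4.37 and 4.37 in END2 and 13.37, 13.60 and 13.49 in PYS2 (at least 286-fold). Rhox5, a homeobox gene of the X chromosome, had 4.83, 5.33 and 4.65 in END2 and 13.67, 13.96 and 13.66 in PYS2, a 454-fold lower level with detection on 1 END2 array. Epb41l3, a membrane skeleton protein, Grb7, a signalling adaptor, and Spink1, a trypsin inhibitor, were at least 174-fold, 140-fold and 151-fold lower. PYS2 replicate 3 was the lowest PYS2 array for Spink1 (13.04, 12.97 and 11.70).

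The differences were not spread evenly over the chromosomes. The median over all tested genes was -0.03, and 14 of the 20 chromosomes had medians between -0.16 and 0.15. Chromosome 14 had a median of -0.64, with 12.2% of its 294 genes higher and 55.8% lower in END2, and the X chromosome one of -0.53, with 21.2% of 292 genes higher and 51.7% lower. Chromosome 7 (-0.33) and chromosome 1 (-0.23) lay below the rest as well. On the other side, chromosome 6 had a median of 0.44, with 45.9% of 475 genes higher and 19.2% lower, and chromosome 2 one of 0.36, with 43% of 726 genes higher and 16.5% lower. These are shifts of many genes by a small amount, since the quartiles of chromosome 14 were -1.42 and 0.04 and those of chromosome 6 were -0.25 and 1.15. The shares lower and higher set beside 29.4% and 27.1% of all genes are a description, with no test.

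The chromosome shifts were similar among well measured genes. Over genes detected on all 6 arrays the medians were -0.60 on chromosome 14, -0.51 on the X chromosome, 0.39 on chromosome 6 and 0.32 on chromosome 2. Without END2 replicate 3 they were -0.61, -0.54, 0.45 and 0.36 over all tested genes of these chromosomes. With the tested genes of a chromosome divided by position into 3 equal parts, the successive medians of chromosome 14 were -0.37, -0.62 and -0.98, those of the X chromosome -0.47, -0.52 and -0.55, and those of chromosome 2 were 0.41, 0.67 and 0.01. The shift on chromosome 2 was thus carried by its first and middle parts. That on chromosome 6 was uneven as well, with successive medians of 0.48, 0.12 and 0.66. Relative to the XEN arrays, which both of the following comparisons share, the medians of chromosome 14 were -0.49 for END2 and 0.00 for PYS2, those of the X chromosome -0.42 and 0.02, those of chromosome 6 were 0.61 and 0.13, and those of chromosome 2 were 0.29 and -0.01. For chromosome 1 they were -0.09 for END2 and 0.18 for PYS2.

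**Figure D4:**
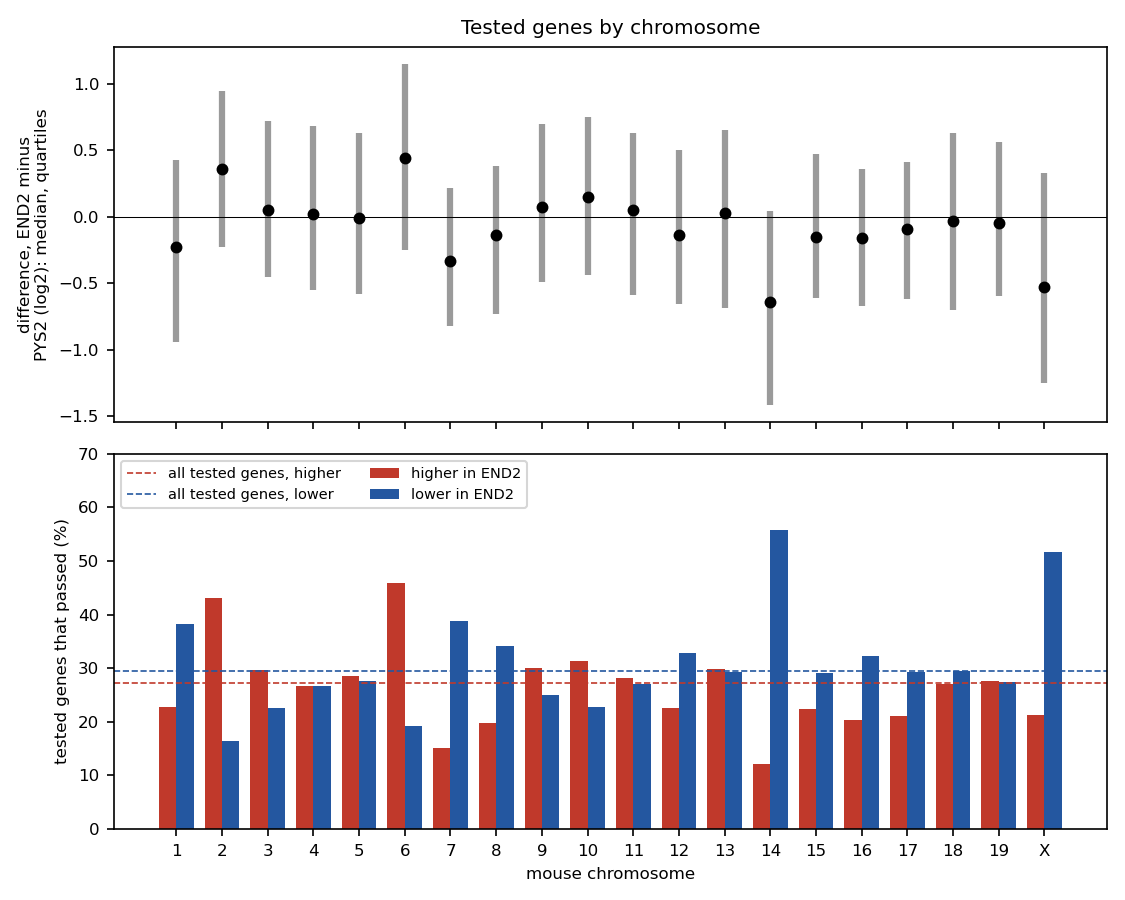
Tested genes of each mouse chromosome (x axis). The upper panel gives the median difference between END2 and PYS2 (log2, point) with its quartiles (bar), and the lower panel the percentage of genes higher (red) or lower (blue) in END2, with dashed lines for all tested genes; chromosomes 14 and X stand out as lower and chromosomes 2 and 6 as higher.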

How the data were processed

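Total RNA of END2, PYS2 and XEN cells was measured on Illumina MouseWG bead arrays in triplicate. The authors deposited a scanner table with an intensity per probe and array on a linear scale, not normalized between arrays, and a detection score as a fraction that rises with the signal, and its complement, 1 minus the score, served as detection p-value. The authors also deposited log2 values made with lumi, whose version is not stated, which were used as an alternative. The columns of 3 further arrays (24 columns) belong to no sample and were not used.

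Signals were background-corrected and quantile normalized over 9 arrays by the neqc function of limma (version 3.58.1, offset 16; R version 4.3.3). END2 and PYS2 were compared in 1 limma model over the 9 arrays, with no replicate block, and p-values were adjusted by Benjamini-Hochberg over the 15745 probes present in either line. A gene was represented by its tested probe with the highest mean, and of 3288 genes with several tested probes 81 had a probe that was higher and another that was lower. Of the tested probes 2022 have no name. Names come from the platform annotation, and chromosomes and promoters from RefSeq on GRCm38.p6. The first promoter listed for a gene was used. The fit was tested on simulated data. The number of arrays limits the precision.

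The comparison and the 39 gene lists, with 988 genes of which 583 were tested, were chosen with earlier results of these data known, so their counts are descriptions. Genes named are the 15 furthest apart on each side whose arrays did not overlap, the first 3 genes of each list with up to 6 that passed on each side, and genes that the study names. Col4a2, Nid2, Hspg2, Tagln2, Snai1, Krt18, Id1, Id2, Id3, Bambi, Igfbp2, Egr1, Timp1 and Hoxc10 were named after their values were seen. Cnn1, Myh11, Lmod1 and the chromosomes described were also named in this way. Alternatives covered the authors' values, background correction, normalization, the filter on dim probes, the model, the choice of probe, the threshold and the removal of single arrays. Slide and scan date were not used, because they are not given in the sources used here.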

Additional observations from a re-analysis of the deposited data

How the results depend on the processing

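Several choices moved the counts of probes by over 1.5 times. Without normalization between arrays 5074 probes passed, 1882 of them lower in END2, and 62.9% of those that passed were higher. A minimum of 2-fold left 4873 probes, 2482 higher and 2391 lower. Leaving out each array in turn gave 7336 to 9008 probes that passed, 3599 to 4432 higher and 3737 to 4576 lower. Probes present ranged from 12882 to 16413 in END2 and from 12343 to 15447 in PYS2 under other rules for presence. The authors' values kept 4857 (94.4%) of the 5147 gene calls, with differences 0.58 times as large at the median. Replicate numbers did not pair the arrays (correlations of same-numbered arrays -0.281, 0.135 and -0.189); with the replicate block 8466 probes passed, 4174 higher and 4292 lower, and 4990 gene calls were kept. Of 355 named genes 330 passed, 271 of them under every setting. With the mean of all probes of a gene, Plod3 and Rps13, both lower in END2 by their brightest probe, had differences of 0.06 and 0.16 that did not pass, because another probe of each was higher in END2. Gata6 lost its call without normalization between arrays (difference 0.83) and at a minimum of 2-fold, and Col4a1, Lamb1 and Plat lost theirs under several settings, Lamb1 without any one of END2 replicates 1 and 2 or PYS2 replicates 1 and 2 (-1.17 to -1.69), Col4a1 without END2 replicate 1 or 2 or PYS2 replicate 3 (-0.64 to -0.68) and Plat without END2 replicate 3 (-0.40) or any PYS2 array (-0.64 to -0.68). The cause of the other changes was not tested.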
